A study of Mus musculus with 14 samples.

Results

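The comparison of ERY1-OVA with Naive set 3 libraries from ovalbumin-specific CD8+ T cells of mice given erythrocyte-binding ovalbumin against 3 libraries from such cells of mice given saline. These 6 of the 14 libraries of the series were taken by their labels alone, and 9793 of 10106 genes were tested. The donor cells came from the spleens of OTI mice, whose CD8+ T cells carry a receptor for the ovalbumin peptide SIINFEKL. They were labelled with the dye CFSE and 10e6 of them were given by tail vein on day 0 to CD45.2+ recipients of strain C57BL6j, at an age of 8-12 weeks. On day 1 the recipients of the ERY1-OVA group received 223 pmol of ERY1-OVA by vein in 100 µL of saline, an amount equivalent to 10 µg of OVA. ERY1-OVA is ovalbumin joined to ERY1, a peptide that binds erythrocytes. The Naive group has saline as its treatment label and gives the resting level. All recipients carried the transferred cells, and both groups kept their own CD45.2+ lymphocytes. On day 4 spleens were taken, erythrocytes were lysed, and viable CD3e+ CD8+ CD45.1+ cells were sorted after magnetic removal of other cells. Levels are in RPKM, which divides a gene's reads by its length in kilobases and scales it to the size of the library. Libraries are named by group and replicate number, as in Naive 2. The 3 values of a group are always in the order of replicates 1, 2 and 3. Differences are log2 fold changes with their standard error (SE) for 3 against 3 libraries. The spread behind each SE was shared over all 14 libraries of the series in 1 fit, not taken from the 6 alone. A gene is said to have risen or fallen where limma gave an adjusted p under 0.05. The labels do not say that the libraries came from separate animals, so p-values measure only the spread between libraries within the groups of the series.

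A CD8+ T cell that meets its antigen leaves the resting state, enlarges, copies its genome and divides over the following days. What it becomes depends on the signals that come with the antigen. With costimulation and inflammation the daughters arm themselves with granzymes and cytokines, while antigen shown without them tends to leave cells that divide and are then deleted or become unresponsive. Aged erythrocytes are cleared in spleen and liver without inflammation, and proteins bound to them are taken up and shown by the cells that clear them. Inhibitory receptors such as PD-1, LAG-3 and CTLA-4, and transcription factors such as EGR2, are known from T cells that have been stimulated for long or without costimulation.

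Transcripts that define CD8+ T cells were abundant in all 6 libraries. The summed level of 6 CD8 T cell markers was 2877 to 3131 RPKM in Naive and 2461 to 2580 RPKM in ERY1-OVA. Of 4 CD4 T cell markers 3 had values, with a summed level of 8.98 to 11.5 RPKM in Naive and 3.91 to 4.43 RPKM in ERY1-OVA. Among these Cd4 stood at 0.197 to 0.396 RPKM and 0.522 to 0.865 RPKM, below the level at which genes were tested, Cd40lg fell by 1.91 ± 0.18, and Zbtb7b was not called. Of 8 B cell markers 3 had values, with a summed level of 8.98 to 12.2 RPKM in Naive and 17.8 to 23.5 RPKM in ERY1-OVA. Within that list Cd22, a lectin that restrains B cell receptor signals, rose from 0.317, 0.435 and 0.369 RPKM to 6.28, 6.02 and 5.90 RPKM (4.03 ± 0.14, adjusted p = 1.2e-09; 2.36 with 1 RPKM added before the logarithm). Cd79b, a chain of that receptor, stood at 9.96, 9.58 and 8.12 RPKM in Naive and 13.8, 16.5 and 11.7 RPKM in ERY1-OVA (0.60 ± 0.25, limma adjusted p = 0.076). Blk, below the level at which genes were tested, was 0.714, 2.14 and 0.497 RPKM and 0.333, 0.971 and 0.228 RPKM. The defining markers Ms4a1, Cd79a and Pax5 had no values here. Of 11 macrophage markers 2 had values (summed 3.50 to 7.08 RPKM in Naive and 5.33 to 10.6 RPKM in ERY1-OVA), and Cd68 rose by 1.24 ± 0.35, a call lost without Naive 2 or ERY1-OVA 3. The other, Lyz2, stood at 3.83, 1.68 and 3.48 RPKM in Naive and 2.30, 0.722 and 0.244 RPKM in ERY1-OVA (-1.93 ± 0.78, limma adjusted p = 0.062). Dendritic cell markers had values for 4 of 8, summed to 11.7 to 26.3 RPKM in Naive and 7.10 to 11.5 RPKM in ERY1-OVA, and the MHC class II gene H2-Aa fell by 1.94 ± 0.66, a call lost without Naive 1 or 3 or ERY1-OVA 2. The erythroid pair Hba-a1 and Hba-a2, near-identical copies, summed to 7.54 to 10.9 RPKM in Naive and 2.18 to 3.84 RPKM in ERY1-OVA without a call. Plasma cell markers (2 of 5 with values) summed to 21.8 to 39.2 RPKM and 22.1 to 23.98 RPKM, and NK cell markers (5 of 6) to 534 to 645 RPKM and 474 to 566 RPKM, with no member called in either. Nkg7 made up most of the NK cell sum, at 498 to 609 RPKM in Naive and 425 to 525 RPKM in ERY1-OVA (-0.23 ± 0.15). Estimates were also lower for Klrb1c (-0.73 ± 0.33), Tyrobp (-0.88 ± 0.48) and Fcer1g (-1.04 ± 0.68), and higher for Eomes (0.45 ± 0.36). Klrb1c stood at 6.20 to 6.88 RPKM in Naive and 3.93 to 4.09 RPKM in ERY1-OVA, without overlap. Of 6 stroma and endothelium markers 1 had values, Pecam1. It rose from 28.7, 32.9 and 27.7 RPKM in Naive to 41.0, 39.3 and 37.6 RPKM in ERY1-OVA (0.40 ± 0.14, limma adjusted p = 0.032). No neutrophil or platelet marker had a value. The part of such cells in the results below was not tested. On the first principal component of all libraries, which held 63.6% of the variance, Naive libraries lay between -61.3 and -55.9 and ERY1-OVA libraries between 21.8 and 23.4. The within-group SD was 0.231 in Naive and 0.245 in ERY1-OVA on the log2 scale. It was 0.416 in the group given free SIINFEKL, whose libraries share in the SE of every gene.

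The RNA of ERY1-OVA cells differed from that of Naive cells in 3905 genes, 39.9% of those tested. Of these, 2048 (20.9%) rose and 1857 (19.0%) fell, while the median over all genes was -0.01. The counts of each list below are to be read beside these shares. Among the genes tested, rises were the larger changes. An estimate of at least 4-fold was seen for 289 genes that rose and 33 that fell, although the median size was alike, 0.71 for rises and -0.64 for falls. Genes were kept by their mean over all 14 libraries, of which 3 were Naive. A gene near 0 in Naive alone could thus pass at a lower level than a gene near 0 in all other groups. The part of this filter in the 4-fold counts was not tested. In 3806 of the called genes (38.9% of those tested) the values of the groups did not overlap. Many genes named below were picked from these 3806, so their lack of overlap came with that choice. Whether called or not, 5138 genes (52.5%) had values that did not overlap. When a change of more than 2-fold was itself the hypothesis tested, 300 rises and 31 falls remained past the threshold. Of the called genes 52.4% had risen, against 43.0% with quantile normalization and 41.3% with a correction for gene length and GC content.

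**Figure D1:**
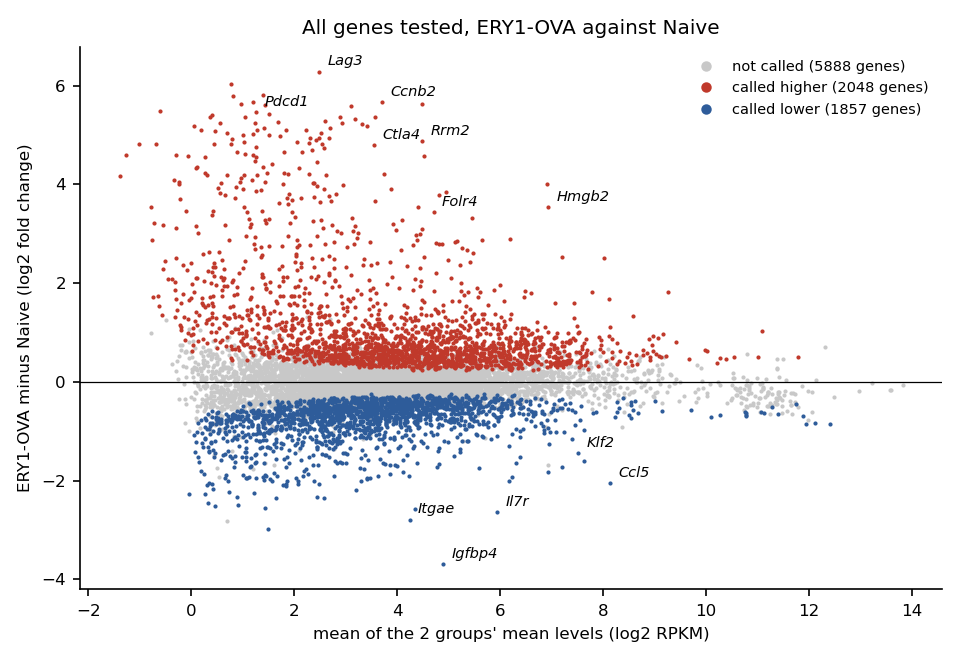
Mean log2 RPKM over Naive and ERY1-OVA libraries (horizontal axis) against log2 fold change of ERY1-OVA from Naive (vertical axis) for the 9793 genes tested, each a point. Coloured points are the 2048 genes that rose and the 1857 that fell, and grey points are the 5888 not called; the rises reach 6.29 and the falls -3.70.

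The genes of mitosis numbered 80, of which 79 rose and none fell, with a median of 4.58. Ccnb2, a cyclin that drives entry into mitosis with the kinase Cdk1, stood at 1.97, 1.67 and 1.88 RPKM in Naive and at 96.2, 90.4 and 92.5 RPKM in ERY1-OVA. Every ERY1-OVA library lay above every Naive library, and the 3 of a group were close to each other. The rise was 5.66 ± 0.47 (adjusted p = 1.6e-06). Ccnb1, the other B-type cyclin of dividing somatic cells, went from 1.28, 1.12 and 1.32 RPKM to 46.2, 44.2 and 50.8 RPKM, a rise of 5.25 ± 0.33. Hmmr, which encodes a protein of the spindle, went from 0.552, 0.157 and 0.497 RPKM to 21.99, 18.2 and 19.4 RPKM (5.82 ± 0.52). In Hmmr too the groups lay far apart, with the Naive libraries all below 1 RPKM. Levels so near 0 make the size of the difference depend on the constant added before the logarithm. With 1 RPKM added, Ccnb2 gave 5.05, Ccnb1 4.42 and Hmmr 3.90.

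In cells that cycle, promoters of mitotic genes are known to share letters that bind NF-Y (the CCAAT box) and the DREAM and MuvB complexes (the cell cycle homology region, CHR), and promoters of replication genes to hold E2F sites. The sequences below show where these letters stand in 3 mitotic genes and 1 replication gene that rose. They are the 250 bases before the start in the RefSeq table of build GRCm38.p6, written 5′ to 3′ on the strand of the gene, with motif letters in capitals. Searched on both strands were TTTGAA for the CHR, CCAAT for the CCAAT box, and TTTCCCGC or TTTGGCGC for E2F; matches of the different motifs may overlap.
Ccnb1: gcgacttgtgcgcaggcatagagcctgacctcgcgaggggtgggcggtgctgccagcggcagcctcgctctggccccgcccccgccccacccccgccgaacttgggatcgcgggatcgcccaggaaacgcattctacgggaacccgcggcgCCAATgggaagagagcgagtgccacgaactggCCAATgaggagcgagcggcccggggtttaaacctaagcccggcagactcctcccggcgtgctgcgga
Ccnb2: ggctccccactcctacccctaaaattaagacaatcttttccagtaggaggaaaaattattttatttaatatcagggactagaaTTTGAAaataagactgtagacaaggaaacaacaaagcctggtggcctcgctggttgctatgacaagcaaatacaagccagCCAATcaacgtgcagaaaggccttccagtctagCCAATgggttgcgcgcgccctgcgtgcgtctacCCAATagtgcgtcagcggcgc
Hmmr: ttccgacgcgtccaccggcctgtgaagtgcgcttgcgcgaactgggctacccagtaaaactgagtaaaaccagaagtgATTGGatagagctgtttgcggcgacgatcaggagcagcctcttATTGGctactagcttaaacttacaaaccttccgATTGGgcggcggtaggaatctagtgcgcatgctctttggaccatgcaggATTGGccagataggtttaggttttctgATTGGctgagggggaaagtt
Mcm5: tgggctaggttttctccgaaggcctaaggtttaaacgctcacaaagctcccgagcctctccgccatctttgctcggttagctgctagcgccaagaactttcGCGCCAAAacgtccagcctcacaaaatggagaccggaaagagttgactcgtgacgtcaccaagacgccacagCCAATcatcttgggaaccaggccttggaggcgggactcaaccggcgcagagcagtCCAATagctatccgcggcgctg
Ccnb1 (chr13:100786487-100786736, minus strand) holds the CCAAT letters at 99 and 67 bases before its start. Ccnb2 (chr9:70421555-70421804, minus strand) holds the CHR letters at 167 bases and CCAAT at 87, 54 and 21 bases. Hmmr (chr11:40733438-40733687, minus strand) holds 5 CCAAT boxes on the opposite strand, written ATTGG, at 172, 129, 96, 47 and 20 bases. Mcm5 (chr8:75109259-75109508, plus strand) holds the E2F letters, as GCGCCAAA, at 149 bases and CCAAT at 77 and 22 bases. Kif2c, a mitotic gene that rose but is not printed, holds the CHR letters, as TTCAAA, at 103 bases and no CCAAT or E2F letters. Bases after the start were not searched, so letters there would be missed.

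Among the 77 promoters of the mitosis genes that matched the table (69 of 80 genes), 36.4% held the CHR letters, against 11.7% of 60 replication promoters and 10.9% of 9899 promoters of tested genes. CCAAT stood in 67.5%, 53.3% and 36.0% of these. The E2F letters were rarer, at 7.79%, 11.7% and 2.77%. CHR and CCAAT together were found in 31.2% of mitosis promoters, 6.67% of replication promoters and 4.28% of those of all tested genes. A match is a description of the letters and not a site shown to be bound. Tk1, the thymidine kinase of S phase, held none of the letters in its window and rose by 5.59 ± 0.46.

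Other genes of the list act from the entry into mitosis to the parting of the daughter cells. Cdk1 rose from 0.705, 0.904 and 2.04 RPKM to 36.3, 40.03 and 39.8 RPKM (5.15 ± 0.48). The kinases Plk1 and Aurkb, which direct spindle assembly and chromosome segregation, rose by 5.03 ± 0.43 and 4.94 ± 0.46. The kinesin motors Kif4, Kif2c, Kif15 and Kif14 gave 5.79 ± 0.50, 5.68 ± 0.48, 5.62 ± 0.56 and 5.48 ± 0.63, with Naive values below 1 RPKM in every library; with 1 RPKM added these were 3.50, 3.69, 3.83 and 2.28. Top2a, which untangles sister chromatids, rose from 5.03, 3.83 and 5.49 RPKM to 139, 94.5 and 110.0 RPKM (4.58 ± 0.35). Mki67, the proliferation antigen Ki-67, went from 1.60, 1.48 and 2.35 RPKM to 91.2, 51.1 and 57.4 RPKM, with the highest value in ERY1-OVA 1 and no overlap between groups (5.19 ± 0.55). Birc5, which encodes survivin, and Foxm1, a transcription factor for mitotic genes, rose by 5.23 ± 0.44 and 3.77 ± 0.40. Smaller rises were seen in members that resting cells already transcribed, such as the condensin subunit Smc2 (7.14, 7.86 and 6.56 RPKM to 34.98, 30.5 and 28.9 RPKM, 2.13 ± 0.14) and the checkpoint protein Bub3 (0.64 ± 0.10). The exception was Pttg1, which encodes securin, at 19.9, 26.0 and 22.3 RPKM in Naive and 21.4, 24.9 and 25.7 RPKM in ERY1-OVA (0.08 ± 0.12, adjusted p = 0.60). In RNA from pools of sorted cells, a larger share of cells with a transcript and more transcript per cell cannot be told apart.

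Among 59 genes of DNA replication, 53 rose and none fell, with a median of 1.84. Their differences were smaller than those of mitosis genes, from higher levels in Naive. Mcm5, a subunit of the replicative helicase, stood at 17.5, 20.3 and 18.0 RPKM in Naive and at 104, 90.5 and 104 RPKM in ERY1-OVA. The values of each group lay close together and far from those of the other (2.42 ± 0.15, adjusted p = 3.8e-07). Rfc5, of the clamp loader, rose from 12.0, 10.3 and 11.1 RPKM to 40.2, 42.9 and 44.8 RPKM (1.93 ± 0.11). Pcna, the sliding clamp itself, rose by 1.60 ± 0.14, to 284 to 327 RPKM. The licensing factor Cdc6 and the fork protein Mcm10, nearly silent in Naive, gave 4.08 ± 0.39 and 4.92 ± 0.49 (2.73 and 3.01 with 1 RPKM added). Cdt1, which loads the helicase with Cdc6, was among the 6 without a call (0.26 ± 0.14, adjusted p = 0.15).

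Regulators of the step into S phase moved in both directions. Of the 35 E2F factors, cyclins and inhibitors of cyclin-dependent kinases tested, 20 rose and 4 fell (median 0.44). E2f8, an E2F that represses transcription, had the second largest rise of all genes at 6.04 ± 0.68, from 0.101, 0.196 and 0.480 RPKM to 16.5, 12.9 and 12.7 RPKM, and 3.58 with 1 RPKM added. The activators E2f1 (1.88, 1.74 and 2.09 RPKM to 9.35, 8.94 and 9.35 RPKM, 2.28 ± 0.20) and E2f2 (3.80 ± 0.40) rose as well. Ccne1, the cyclin of the G1 to S step, went from 5.34, 5.76 and 4.98 RPKM to 21.2, 22.5 and 23.3 RPKM (2.06 ± 0.16), and its partner Cdk2 rose by 1.90 ± 0.15. Of the D-type cyclins, Ccnd2 fell by 1.00 ± 0.15, and Ccnd3 gave -0.26 ± 0.12 (adjusted p = 0.11). Btg1, a restraint on division in resting lymphocytes, fell by 1.02 ± 0.13, from 205 to 223 RPKM to 93.8 to 120.1 RPKM. The inhibitor Cdkn1b (p27) gave -0.42 ± 0.17 (adjusted p = 0.068), whereas Cdkn2c (p18) rose by 2.49 ± 0.24. The falls numbered 2 without Naive 3, 8 under quantile normalization and 7 after correction for length and GC content.

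The nucleotide synthesis genes numbered 48, of which 24 rose and 4 fell, with a median of 0.38. Enzymes that supply deoxynucleotides were among both. Tk1 went from 1.70, 0.894 and 1.23 RPKM to 49.99, 65.9 and 63.6 RPKM and Rrm2, the S phase subunit of ribonucleotide reductase, from 4.24, 3.41 and 4.90 RPKM to 124, 126 and 114 RPKM (4.87 ± 0.38). Rrm2b, the alternative subunit of resting cells, fell by 0.77 ± 0.13. Tyms, which makes thymidylate, rose by 3.90 ± 0.32. Among 61 DNA repair and checkpoint genes, 38 rose and 1 fell (median 0.72); the fall, Rad9a, was lost without Naive 2 or 3 or ERY1-OVA 1 or 2. There were 2 falls with quantile normalization, with the 2 groups fitted alone and without ERY1-OVA 3, and 3 after correction for length and GC content. Recombination and Fanconi genes were among those that rose, with Brca1 at 3.73 ± 0.40 and the nuclease Exo1 at 4.04 ± 0.32 (2.33 and 1.89 with 1 RPKM added). Chek1, the kinase of the replication checkpoint, rose by 3.44 ± 0.41, while the sensor kinases Atm and Atr gave -0.28 ± 0.19 and 0.03 ± 0.19, neither called.

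Chromatin genes moved both ways: 23 of 64 rose and 15 fell (median 0.15). Those that rose included factors that accompany replication. Hmgb2, an abundant chromatin protein of dividing cells, went from 38.6, 30.7 and 38.4 RPKM to 376, 443 and 437 RPKM (3.55 ± 0.22). Asf1b, a histone chaperone, rose by 3.27 ± 0.24, Ezh2, the methyltransferase of Polycomb, by 2.78 ± 0.22, and Uhrf1 and Dnmt1, which copy DNA methylation, by 3.55 ± 0.36 and 1.41 ± 0.26. Ezh1, the Ezh2 paralogue of resting cells, fell by 0.63 ± 0.14. The falls numbered 9 without Naive 2.

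**Figure D2:**
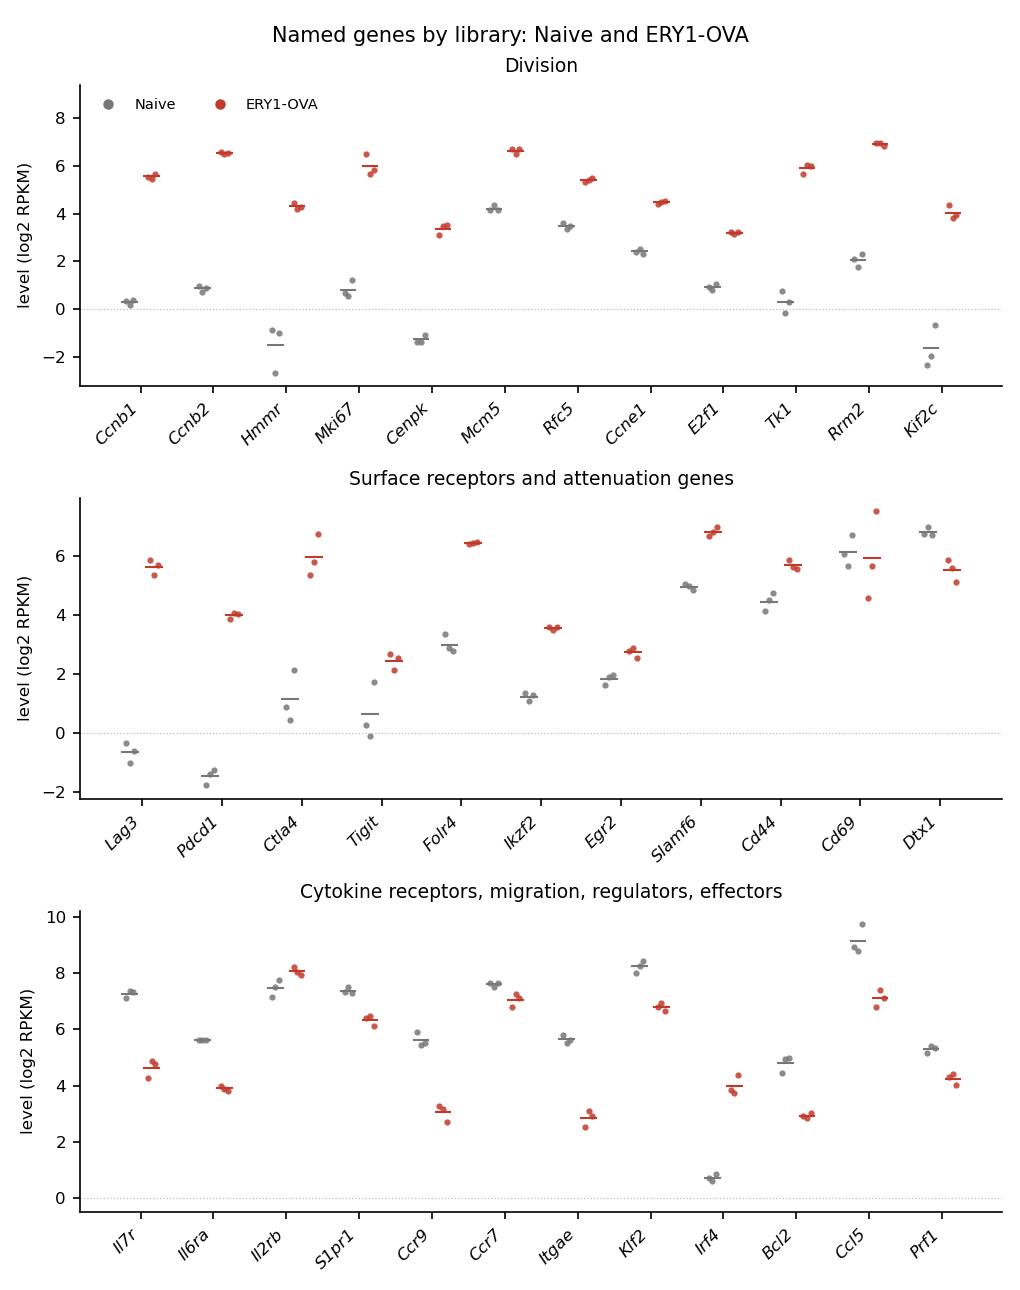
Level in each library (log2 RPKM, vertical axes) of named genes (horizontal axes) of division (top), of surface receptors and signal attenuation (middle) and of cytokine receptors, migration, regulators and effectors (bottom); dots are the 3 Naive and the 3 ERY1-OVA libraries and short lines the group means. All 12 division genes are higher in each ERY1-OVA library than in any Naive library, while Il7r, Itgae and Ccr9 show the reverse.

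Of the 15 inhibitory receptors tested, 8 rose and 2 fell, with a median of 0.72. Lag3 (chr6:124904361-124911705, minus strand), a receptor that binds MHC class II, had the largest rise of all genes tested. It stood at 0.793, 0.492 and 0.653 RPKM in Naive and at 58.2, 40.6 and 51.3 RPKM in ERY1-OVA. No Naive library reached 1 RPKM, and every ERY1-OVA library held at least 40.6 RPKM, so the groups were far apart (6.29 ± 0.63, adjusted p = 6.2e-06; 4.94 with 1 RPKM added). Pdcd1 (chr1:94038305-94052553, minus strand), which encodes PD-1, went from 0.294, 0.378 and 0.421 RPKM to 14.4, 16.8 and 16.5 RPKM (5.46 ± 0.59; 3.63 with 1 RPKM added). Ctla4, which competes with CD28 for its ligands, went from 1.85, 1.36 and 4.38 RPKM to 40.5, 54.9 and 108 RPKM. Replicate 3 was the highest in both groups, and the groups did not overlap (4.80 ± 0.43). Cd200, the ligand of an inhibitory myeloid receptor, rose by 3.15 ± 0.42 and the receptor gene Cd200r1 by 1.27 ± 0.25 (0.71 with 1 RPKM added). Tigit, an inhibitory receptor for nectins, rose from 1.20, 0.925 and 3.33 RPKM to 6.41, 4.36 and 5.75 RPKM (1.81 ± 0.36). Btla and Cd160, which bind HVEM, had smaller rises of 0.77 ± 0.23 and 0.72 ± 0.25; the first was lost without Naive 3 or ERY1-OVA 2, and the second without any Naive library, without ERY1-OVA 2 or 3, or with the length and GC correction (0.45 to 0.79).

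The 2 that fell were 4632428N05Rik, which encodes VISTA, a receptor of resting T cells, and Klrg1, a lectin receptor of terminal effector cells. 4632428N05Rik stood at 120.3, 126 and 121 RPKM in Naive and 57.5, 61.7 and 52.0 RPKM in ERY1-OVA, without overlap (-1.11 ± 0.12). Klrg1 went from 7.75, 5.46 and 3.34 RPKM to 0.969, 2.04 and 1.44 RPKM (-1.88 ± 0.68). Its call was lost without any 1 of the 6 libraries other than Naive 3 (-2.14 to -1.59). Cd5, Cd6, Cd96, Lair1 and Cd72 were not called; with quantile normalization 4 of the list fell. Of 11 receptors shared with NK cells, which include Klrg1, 3 fell and none rose (median -0.73), while 7 fell under the correction for length and GC content, 6 with the 2 groups fitted alone and 1 without any 1 library other than Naive 3. Cd7, a surface protein of T and NK cells, was among them (250.4, 214 and 229.8 RPKM to 61.5, 80.6 and 54.8 RPKM, -1.83 ± 0.27). Klra9, whose reads near-identical Klra genes could share, fell as well, but not without any 1 of the 6 libraries (-1.60 to -1.37). Klrk1, which encodes NKG2D, gave 0.28 ± 0.20 (adjusted p = 0.29).

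The genes of anergy and receptor attenuation numbered 32, of which 11 rose and 3 fell (median 0.34). Folr4, a surface protein found on regulatory and anergic T cells, went from 10.1, 7.28 and 6.79 RPKM to 84.1, 86.1 and 89.3 RPKM. Both groups were tight and lay far apart (3.44 ± 0.25, adjusted p = 7.7e-07). Ikzf2, which encodes the transcription factor Helios, rose from 2.55, 2.10 and 2.41 RPKM to 12.1, 11.2 and 12.1 RPKM (2.33 ± 0.28). Nrp1, a coreceptor for semaphorins, rose by 3.43 ± 0.70 (2.28 with 1 RPKM added). Egr2 (chr10:67535475-67542188, plus strand), a transcription factor of the anergy programme, went from 3.09, 3.75 and 3.88 RPKM to 6.89, 7.36 and 5.85 RPKM. The lowest ERY1-OVA value was above the highest Naive value (0.91 ± 0.14, adjusted p = 2.6e-04). Its relative Egr3 gave 0.38 ± 0.31 (adjusted p = 0.35). Of the 3 falls 1 was left without ERY1-OVA 2, Naive 1 or Naive 2.

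Feedback inhibitors of the receptor cascade did not move as one. Spry1 and Dusp4, which dampen ERK signals, rose by 2.59 ± 0.42 and 2.31 ± 0.49, with ERY1-OVA 3 the highest in each (1.78, 2.61 and 5.16 RPKM and 3.37, 3.27 and 8.09 RPKM; 1.42 and 1.52 with 1 RPKM added). Spry2 fell by 1.14 ± 0.42, a call lost in the block fit and without any 1 library other than ERY1-OVA 3. The ubiquitin ligase Cblb, which raises the threshold for activation, rose by 0.47 ± 0.15 (lost without Naive 1, Naive 3 or ERY1-OVA 1). The diacylglycerol kinase Dgkz rose by 0.43 ± 0.14 (lost with quantile normalization, 0.25, and without any 1 of Naive 1, Naive 2, ERY1-OVA 1 and ERY1-OVA 3), while its paralogue Dgka gave 0.06 ± 0.11 (adjusted p = 0.70). Dtx1, a ligase linked to anergy, ran the other way and fell by 1.30 ± 0.17, from 108, 126 and 105 RPKM to 57.7, 47.7 and 34.9 RPKM. Of the Nr4a nuclear receptors, which respond quickly to receptor signals, Nr4a3 rose by 0.82 ± 0.19, and Nr4a1 gave 0.40 ± 0.41 (adjusted p = 0.46).

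Among 35 genes of the T cell receptor pathway itself, 10 fell and 2 rose (median -0.11). Malt1, of the complex that activates NF-κB, went from 32.9, 31.7 and 30.4 RPKM to 18.5, 17.0 and 17.9 RPKM, so that each ERY1-OVA value was below each Naive value. It fell by 0.83 ± 0.11 and so did the adaptors Grap2 (-0.57 ± 0.10) and Pag1 (-0.91 ± 0.15). Cd8b1, a chain of the CD8 coreceptor, fell by 0.56 ± 0.11. Cd8a gave -0.33 ± 0.10, a call lost without Naive 1 or 3 or ERY1-OVA 3. The kinases Lck and Zap70, which start the cascade, gave -0.11 ± 0.13 and 0.14 ± 0.11, neither called. Sh2d1a, which encodes the adaptor SAP, rose by 1.16 ± 0.24; the other rise, Lcp2, was 1 that single libraries decided, being lost without ERY1-OVA 1 or 3 or Naive 1 or 3. There was 1 rise under quantile normalization and under the length and GC correction.

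Of the 17 immediate-early and AP-1 genes tested, 10 fell and 1 rose, but these counts rested on single libraries. Jun, a subunit of AP-1, stood at 63.2, 75.9 and 143 RPKM in Naive and 10.6, 28.5 and 60.7 RPKM in ERY1-OVA (-1.74 ± 0.62). Its call was lost without Naive 2, Naive 3, ERY1-OVA 1 (-1.08) or ERY1-OVA 2. Fos gave 188, 132 and 418 RPKM and 33.3, 51.2 and 184 RPKM, a difference of -1.68 ± 0.85 without a call (adjusted p = 0.13). Replicate 3 was the highest of its group for both genes in Naive and in ERY1-OVA. Cd69, an early activation marker, showed the same order within ERY1-OVA (23.9, 50.6 and 182 RPKM) and gave -0.22 ± 0.63 from Naive (adjusted p = 0.80). The number of falls was 3 without Naive 3, ERY1-OVA 1 or ERY1-OVA 2, and 6 without Naive 2. Batf, the AP-1 factor of effector and exhausted cells, rose from 24.2, 26.8 and 26.9 RPKM to 51.1, 73.1 and 61.5 RPKM (1.24 ± 0.16) and Bach1, a repressor at related sites, fell by 1.21 ± 0.20.

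The costimulatory molecules and members of the TNF receptor family numbered 31, of which 13 rose and 5 fell (median 0.32). Cd44, the adhesion receptor that marks T cells with antigen experience, went from 17.4, 22.7 and 26.6 RPKM to 58.7, 49.1 and 46.9 RPKM, without overlap (1.23 ± 0.14). Slamf6, a receptor of the SLAM family, rose from 33.4, 31.2 and 28.9 RPKM to 101, 113 and 125 RPKM (1.85 ± 0.17). Icos and Cd28, the paired costimulatory receptors, rose by 1.07 ± 0.14 and 0.99 ± 0.15. Tnfrsf9 (4-1BB) rose by 1.56 ± 0.27, Cd27 by 0.74 ± 0.10 and Tnfsf11 (RANK ligand) by 3.01 ± 0.51, the last from 0.315 to 0.482 RPKM (1.57 with 1 RPKM added). Cd40lg, the ligand that T cell help rests on, fell by 1.91 ± 0.18, to 2.03 to 2.51 RPKM. Tnfrsf4 (OX40) and Tnfrsf18 (GITR) gave -0.39 ± 0.66 and -0.38 ± 0.15, neither called.

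Among 26 cytokine receptor chains, 16 fell and 3 rose, with a median of -0.63. Il7r (chr15:9505788-9530176, minus strand), whose ligand keeps resting T cells alive, stood at 139, 164 and 161 RPKM in Naive and 19.1, 29.3 and 27.4 RPKM in ERY1-OVA. Even the highest ERY1-OVA library was far below the lowest Naive library (-2.64 ± 0.21, adjusted p = 1.3e-06). Il6ra, which binds interleukin 6, went from 49.8, 49.8 and 49.4 RPKM to 16.03, 14.8 and 14.04 RPKM (-1.73 ± 0.12). The signalling chain it shares with other receptors, Il6st, gave -0.21 ± 0.10 (adjusted p = 0.11). Both chains of the interferon-γ receptor fell, Ifngr1 (-0.98 ± 0.15) and Ifngr2 (-2.35 ± 0.34), the latter from 14.1, 13.7 and 13.1 RPKM to 2.28, 2.78 and 2.99 RPKM. All 3 receptors for TGF-β fell, Tgfbr1 (-0.50 ± 0.13), Tgfbr2 (-0.88 ± 0.14) and Tgfbr3 (-1.47 ± 0.39). Acvrl1, a relative that binds bone morphogenetic proteins, fell by 2.51 ± 0.54 (-1.45 with 1 RPKM added). Il18r1 fell by 1.64 ± 0.44 and Il12rb2 fell by 1.22 ± 0.33, receptors for cytokines that promote interferon-γ.

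The chains of the interleukin 2 receptor differed. Il2rb, shared with the interleukin 15 receptor, was 142, 183 and 215 RPKM in Naive and 295, 260.5 and 247 RPKM in ERY1-OVA (0.59 ± 0.17), a rise that was lost with quantile normalization (0.38) and without Naive 1 or ERY1-OVA 1. Il2ra, the high-affinity chain that early activation induces, was near the lower limit, at 0.987, 2.16 and 1.59 RPKM and 0.635, 0.937 and 0.608 RPKM. Its fold change of -1.08 ± 0.40 (adjusted p = 0.046) lost its call without Naive 2 or 3 or ERY1-OVA 1 or 3 and with 1 RPKM added. The common chain Il2rg fell by 0.67 ± 0.11. The others that rose were Il10ra (0.62 ± 0.14) and Ifnar2 (0.65 ± 0.09), receptor chains for interleukin 10 and type I interferon.

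Of the 24 receptors of migration tested, 10 fell and 6 rose (median -0.17). Ccr9, which guides T cells to the small intestine, went from 60.5, 43.2 and 46.0 RPKM to 9.77, 8.98 and 6.60 RPKM (-2.57 ± 0.44). S1pr1, needed to leave lymphoid organs, went from 161, 182 and 158 RPKM to 84.1, 88.7 and 70.4 RPKM. The groups were well apart, at about 2-fold (-1.04 ± 0.11). Ccr7, which holds T cells in lymph nodes, fell by 0.56 ± 0.13. Cxcr3, a receptor of inflamed tissue, rose by 0.86 ± 0.23 (0.53 without Naive 1), with 1 of its Naive values near the ERY1-OVA range (19.6, 32.1 and 47.5 RPKM against 55.1, 66.6 and 48.7 RPKM), and Cxcr5, which guides cells to B cell follicles, by 1.19 ± 0.31. Cx3cr1 (-1.94 ± 0.62) and S1pr5 (-1.97 ± 0.58), of cells that patrol blood, fell; the first call was lost without Naive 1 or ERY1-OVA 1 or 3, the second without Naive 3. The number of falls was 5 without Naive 3 or ERY1-OVA 1 and 6 without Naive 1.

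The integrins and adhesion molecules numbered 21, of which 7 rose and 4 fell. Itgae, which encodes CD103 for binding to epithelium, had one of the largest falls, from 55.4, 45.7 and 49.3 RPKM to 5.78, 8.50 and 7.65 RPKM (-2.79 ± 0.31). Itgb1, the chain of integrins for extracellular matrix, rose from 43.6, 45.9 and 54.0 RPKM to 185, 173 and 156 RPKM (1.84 ± 0.21), and Alcam, the ligand of CD6, from 0.507, 0.237 and 0.206 RPKM to 5.19, 5.05 and 5.72 RPKM (4.19 ± 0.44; 2.27 with 1 RPKM added). The rises numbered 4 without Naive 3.

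Among 24 granule and cytotoxic genes, 8 rose and 6 fell, with a median of -0.04. Of the 8 rises, 5 were in inhibitors of proteases. Serpinb6b, a serpin, went from 12.5, 13.9 and 13.9 RPKM to 66.3, 84.3 and 74.7 RPKM (2.48 ± 0.18) and the cathepsin inhibitors Ctla2a and Ctla2b rose by 1.72 ± 0.43 and 2.09 ± 0.39. Prf1, which encodes perforin, fell by 1.05 ± 0.20, from 35.5, 42.8 and 40.1 RPKM to 20.0, 21.5 and 16.1 RPKM, each ERY1-OVA value below each Naive value. Gzmb, the granzyme of killer cells, was 11.6, 6.81 and 9.24 RPKM in Naive and 5.80, 8.62 and 11.7 RPKM in ERY1-OVA, with overlapping values (-0.10 ± 0.40, adjusted p = 0.85). Gzma gave -1.20 ± 0.64 (adjusted p = 0.15), with Naive 1 the highest at 87.7 RPKM. Gzmk rose from 0.837, 0.852 and 0.781 RPKM to 1.94, 3.39 and 4.75 RPKM (1.94 ± 0.38; 1.20 with 1 RPKM added). The falls numbered 3 without Naive 2 or 3 or ERY1-OVA 2 or 3, and 10 under the correction for length and GC content.

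Of 11 cytokines and chemokines 2 rose (18.2%) and 1 fell (9.09%), against 20.9% and 19.0% of all genes tested. Xcl1, which attracts cross-presenting dendritic cells, went from 15.9, 15.1 and 28.4 RPKM to 60.4, 79.2 and 91.8 RPKM, without overlap (2.00 ± 0.33). Ccl5, a chemokine stored by memory cells, fell from 493, 440.3 and 851 RPKM to 112, 168 and 139.9 RPKM (-2.04 ± 0.53), with Naive 3 highest and the groups apart. Ifng was 3.51, 2.09 and 10.1 RPKM in Naive and 3.40, 9.55 and 31.7 RPKM in ERY1-OVA, replicate 3 being highest in both (1.27 ± 0.78, adjusted p = 0.21). Tnf gave 0.53 ± 0.28 (adjusted p = 0.15) and Il2 0.68 ± 0.22, a rise lost without Naive 1 or 2 or ERY1-OVA 2 or 3 and under the correction for length and GC content (0.24). Without ERY1-OVA 1, 5 of the 11 rose, and 1 rose without Naive 1 or 2 or ERY1-OVA 2 or 3.

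Among effector transcription factors 5 of 23 rose (21.7%) and 3 fell (13.0%), against 20.9% and 19.0% of all genes tested. Irf4, whose level follows the strength of receptor signals, went from 1.64, 1.53 and 1.82 RPKM to 14.4, 13.5 and 20.9 RPKM (3.27 ± 0.26, adjusted p = 1.3e-06) and Irf8 rose by 2.20 ± 0.25. Tbx21 (T-bet) and Eomes, which drive effector and memory fates, gave 0.43 ± 0.22 (adjusted p = 0.13) and 0.45 ± 0.36 (adjusted p = 0.34), and their values overlapped. Id2, which supports effector cells, fell from 52.9, 39.8 and 55.2 RPKM to 15.3, 20.8 and 28.5 RPKM (-1.23 ± 0.24), whereas Id3, its counterpart in less differentiated cells, rose from 42.9, 42.4 and 39.5 RPKM to 106, 109 and 70.1 RPKM (1.17 ± 0.25). The 2 genes thus moved in opposite directions, each without overlap. Zeb2, of terminal effectors, fell by 1.40 ± 0.40 (-0.87 with 1 RPKM added), a call lost without Naive 1. The rises numbered 3 without ERY1-OVA 2 or Naive 1 or 2 and with quantile normalization. The falls numbered 6 without ERY1-OVA 1, 7 with quantile normalization and 5 with the 2 groups fitted alone.

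Of the 31 transcription factors of naive and memory cells tested, 12 fell and 4 rose (median -0.31). Klf2, which maintains quiescence and drives S1pr1, went from 259, 306 and 345 RPKM to 110.3, 123 and 100.4 RPKM (-1.44 ± 0.14), and Klf3 fell by 1.10 ± 0.12. Lef1 fell from 156, 157 and 150.1 RPKM to 104, 79.0 and 71.5 RPKM (-0.88 ± 0.13), while its relative Tcf7, a factor of stem-like T cells, stood at 677, 742 and 764 RPKM and 859, 704 and 644 RPKM (0.01 ± 0.15, adjusted p = 0.97), with overlapping values. Myb rose from 2.77, 3.30 and 4.22 RPKM to 21.1, 22.8 and 35.01 RPKM (2.92 ± 0.21). Tox, a factor of exhausted cells, gave 0.30 ± 0.15 (adjusted p = 0.13). Myc, the growth regulator counted with the immediate-early genes, fell by 0.72 ± 0.21, a call lost without Naive 3 or ERY1-OVA 1 or 2. The falls among these factors numbered 7 without ERY1-OVA 3.

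The genes of the BCL-2 family and caspases numbered 41, of which 17 rose and 4 fell (median 0.19). Bcl2, which protects resting T cells, went from 22.1, 30.5 and 32.0 RPKM to 7.51, 7.24 and 8.12 RPKM, with no overlap (-1.87 ± 0.18). The A1 genes Bcl2a1a, Bcl2a1b and Bcl2a1d, other survival factors, rose by 3.08 ± 0.40, 2.79 ± 0.37 and 3.00 ± 0.39; they are near-identical copies whose reads could be split between them. Among killers of the family, Bbc3 (PUMA) fell by 1.94 ± 0.35, Bak1 rose by 0.83 ± 0.10, and Bcl2l11 (BIM) stood at 24.8, 31.9 and 30.1 RPKM and 50.9, 44.0 and 32.6 RPKM (0.54 ± 0.24, adjusted p = 0.086). Casp1 and Casp4, of inflammatory death, rose by 1.56 ± 0.27 and 2.63 ± 0.42, the latter 1.54 with 1 RPKM added. The falls numbered 2 without ERY1-OVA 3 and 9, against 13 rises, under the correction for length and GC content.

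Of 21 glycolysis genes 8 rose and 1, Ldhb, fell, a call lost without any 1 library; 2 fell with quantile normalization, with the replicate block and with the 2 groups fitted alone. Gapdh went from 28.9, 29.8 and 35.1 RPKM to 68.5, 74.8 and 75.2 RPKM (1.22 ± 0.11; copies of this gene elsewhere in the genome could share its reads) and Tpi1 from 40.7, 48.6 and 49.2 RPKM to 95.3, 93.5 and 109 RPKM (1.11 ± 0.13). Ldha, which makes lactate, rose by 0.87 ± 0.12, while Eno1 and Aldoa gave 0.13 ± 0.11 and -0.06 ± 0.10, neither called. Hk2, the inducible hexokinase, rose by 0.91 ± 0.25 (0.56 with 1 RPKM added), a call lost without ERY1-OVA 3. The tricarboxylic acid cycle showed 13 of 28 rises and 2 falls, with Fh1 at 0.96 ± 0.17 and Sdhb at 0.78 ± 0.11. Idh2, the mitochondrial isocitrate dehydrogenase, fell by 0.80 ± 0.21, and without ERY1-OVA 2 or Naive 3 there was 1 fall.

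Among 77 subunits of oxidative phosphorylation, 36 rose and none fell (median 0.47). Atp5g3, of the ATP synthase, went from 217, 181 and 209 RPKM to 327, 430.0 and 411 RPKM (0.94 ± 0.15). Of the 77 mitochondrial ribosomal proteins tested, 34 rose and 1 fell (median 0.39), led by Mrpl27 (1.37 ± 0.17), and 23 rose and 4 fell with the length and GC correction. The proteasome subunits numbered 37, of which 25 rose and none fell (median 0.51), with Psma1 at 0.98 ± 0.17. These differences were small, and the counts moved with single libraries. Without ERY1-OVA 2, ERY1-OVA 3 or Naive 2 the rises in oxidative phosphorylation numbered 23, 22 and 20, and those in mitochondrial ribosomal proteins 18, 19 and 19; proteasome rises numbered 15 without Naive 2. In oxidative phosphorylation and in the proteasome 1 gene each fell with quantile normalization, under the length and GC correction and with the 2 groups fitted alone, and 2 mitochondrial ribosomal proteins fell without Naive 1.

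Among 42 cholesterol and lipid synthesis genes, 15 rose and 6 fell (median 0.08). Idi1, an enzyme of the cholesterol pathway, went from 8.88, 7.52 and 7.58 RPKM to 15.1, 21.7 and 17.2 RPKM (1.16 ± 0.18). Scd2, a fatty acid desaturase, rose by 1.61 ± 0.25. Mylip, a ubiquitin ligase of sterol regulation, fell by 1.33 ± 0.14. The falls numbered 3 without Naive 2.

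Of the 81 cytosolic ribosomal proteins tested, 10 fell (12.3%) and 1 rose (median -0.27). The share of falls was below the 19.0% of all genes tested. Rpl23 went from 2174, 2059 and 2410.3 RPKM to 1384, 1431 and 1356 RPKM (-0.67 ± 0.18), and Rps27l, a paralogue of Rps27 that p53 induces, rose by 1.37 ± 0.28. Many of these genes have processed copies that could share reads. The number of falls was 27 with quantile normalization, where 9 rose, 42 after correction for length and GC content, 20 with the 2 groups fitted alone, and 2 to 5 without Naive 3, ERY1-OVA 1, Naive 1 or ERY1-OVA 3. The ribosome biogenesis and RNA polymerase I genes numbered 65, of which 23 fell and 4 rose (median -0.23). Polr1b, a core subunit of RNA polymerase I, went from 13.5, 15.0 and 13.2 RPKM to 9.19, 7.54 and 8.04 RPKM (-0.75 ± 0.13), and the processing factors Rrs1 (-0.71 ± 0.14) and Rrp9 (-0.66 ± 0.13) fell as well. That count was 11 without Naive 2 or ERY1-OVA 2, 12 without Naive 3 and 34 after correction for length and GC content; the rises numbered 2 without ERY1-OVA 3 or Naive 2, with quantile normalization and under that correction.

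**Figure D3:**
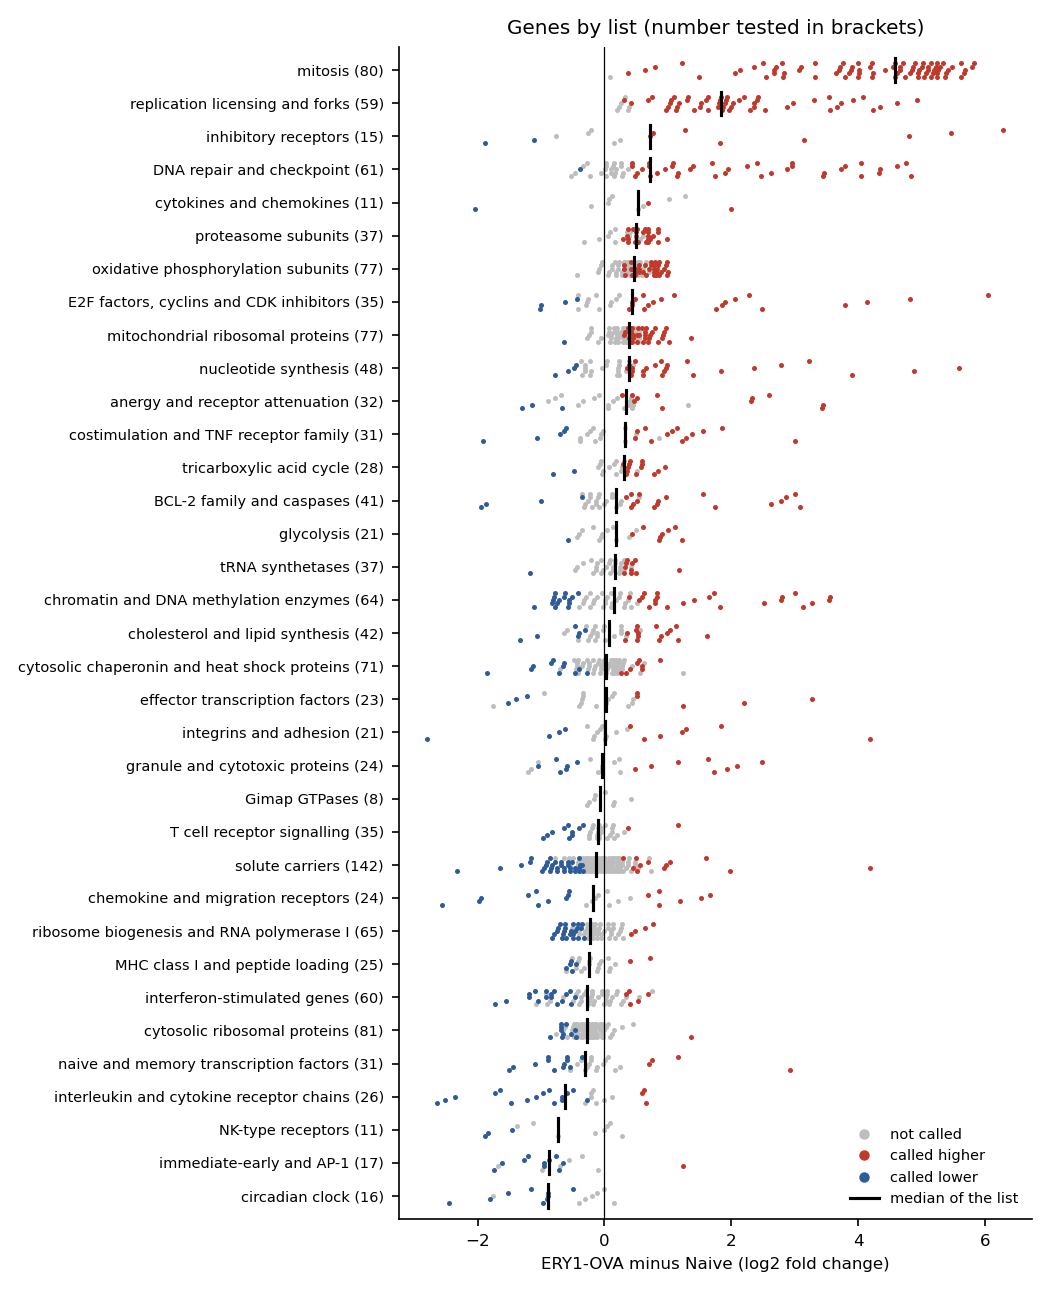
Log2 fold change of ERY1-OVA from Naive (horizontal axis) for each tested member of 35 gene lists, ordered by median; dots are genes coloured by call, and black bars are medians. Mitosis (median 4.58) and replication (1.84) stand at one end and the circadian clock (-0.89) and immediate-early genes (-0.88) at the other.

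Several of the largest falls were in genes outside these lists. Igfbp4, a binding protein of insulin-like growth factors, had the largest of all, from 112, 109 and 99.5 RPKM to 7.75, 7.97 and 9.04 RPKM. The groups lay more than 10-fold apart (-3.70 ± 0.36, adjusted p = 5.4e-06). Fam211b went from 7.75, 8.37 and 7.45 RPKM to 0.983, 1.10 and 0.920 RPKM (-2.98 ± 0.34; -2.15 with 1 RPKM added). Tle1, a corepressor, fell by 2.55 ± 0.32, and Pmepa1 (-2.50 ± 0.36), which TGF-β induces and which limits its signal, fell too. Plaur (-2.35 ± 0.41), the urokinase receptor, and App (-2.33 ± 0.37), the amyloid precursor, were others; with 1 RPKM added these 3 gave -1.61, -1.75 and -1.48. Rgmb, a coreceptor of bone morphogenetic proteins, fell by 2.25 ± 0.21.

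ERY1-OVA was next compared with OVA, the same protein at the same molar dose without the erythrocyte-binding peptide. Few genes were called: 104 (1.06%), with 40 higher (0.408%) and 64 lower (0.654%) in ERY1-OVA. An unadjusted limma p under 0.05 was seen for 1683 genes, so differences without a call could be many. The second principal component of all libraries held 14.1% of the variance. On it ERY1-OVA libraries lay between -7.52 and -4.71 and OVA libraries between 14.2 and 20.1. The values of the 2 groups did not overlap in 2388 genes (24.4%), all 104 called among them, so a lack of overlap was common. Higher in ERY1-OVA were several regulators named above. Egr2 stood at 6.89, 7.36 and 5.85 RPKM in ERY1-OVA and 2.93, 2.99 and 2.62 RPKM in OVA (1.23 ± 0.14, adjusted p = 0.0064), without overlap. The Naive values of Egr2 lay between these groups. Ikzf2 was 12.1, 11.2 and 12.1 RPKM against 3.65, 3.64 and 4.25 RPKM (1.62 ± 0.28, adjusted p = 0.030) and Folr4 84.1, 86.1 and 89.3 RPKM against 30.9, 34.8 and 30.5 RPKM (1.43 ± 0.25, adjusted p = 0.030). In both genes the ERY1-OVA and OVA values were far apart. Myb differed by 0.99 ± 0.21, the unnamed gene A530021J07Rik by 2.04 ± 0.29 and Rasgef1a by 1.76 ± 0.38 (0.89 with 1 RPKM added). Lag3 and Pdcd1 gave 1.26 ± 0.63 (adjusted p = 0.33) and 0.64 ± 0.59 (adjusted p = 0.65), and Cd200 1.54 ± 0.42 (adjusted p = 0.084). Of the mitosis genes none was called in this comparison (median -0.10). Their SEs were as wide here as against Naive, so moderate differences could have gone uncalled. Ccnb2 stood at 96.2, 90.4 and 92.5 RPKM against 102, 96.0 and 103 RPKM, overlapping only in ERY1-OVA 1 and OVA 2.

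Genes lower in ERY1-OVA than in OVA included members of the glycolysis and nucleotide synthesis lists. Of 21 glycolysis genes 4 were lower and none higher (median -0.34): Tpi1 (-0.76 ± 0.13), Eno1 (-0.61 ± 0.11), Aldoa (-0.56 ± 0.10) and Pgam1 (-0.45 ± 0.09). Tpi1 stood at 95.3, 93.5 and 109 RPKM after ERY1-OVA and 159, 164 and 181 RPKM after OVA, both above the Naive values given before. Nucleotide synthesis had 4 of 48 lower (median -0.36), among them Shmt2 (-0.69 ± 0.14), which supplies folate-bound carbon. Dctd, which deaminates deoxycytidylate, differed by -0.96 ± 0.16, and Ccne1 by -0.75 ± 0.16. Of 24 granule and cytotoxic genes 1, Gzmk, was lower and none higher (median -0.11). Gzmk stood at 1.94, 3.39 and 4.75 RPKM against 20.9, 7.39 and 8.73 RPKM (-1.81 ± 0.38, adjusted p = 0.041), the OVA libraries all being higher. Gzmb had 5.80, 8.62 and 11.7 RPKM against 50.4, 20.3 and 22.2 RPKM without overlap, but missed the threshold (-1.76 ± 0.40, adjusted p = 0.051). Igfbp4, Tubb3 and Chchd10 gave -1.67 ± 0.36, -1.78 ± 0.35 (-0.78 with 1 RPKM added) and -1.05 ± 0.21. Leaving out any 1 of the 6 libraries left 0 to 15 calls, and Egr2 was lost only without ERY1-OVA 1; without the SIINFEKL group in the fit 359 genes were called. The OVA replicate with the highest Gzmb and Gzmk, replicate 1, also held the most H2-Aa of the group (13.8, 4.16 and 2.30 RPKM), and dendritic markers summed to 12.4 to 62.3 RPKM in OVA; their part in these differences was not tested.

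ERY1-OVA was last set against TER119-SIINFEKL, the peptide SIINFEKL joined to TER119, an antibody to erythrocytes, at the same molar dose. Here 55 genes were called (0.562%), 7 higher (0.0715%) and 48 lower (0.49%) in ERY1-OVA, and 1065 had an unadjusted p under 0.05. Egr2 was lower in ERY1-OVA, at 6.89, 7.36 and 5.85 RPKM against 12.8, 15.2 and 11.7 RPKM (-0.98 ± 0.14, adjusted p = 0.011). Egr2 thus differed in both tests, above OVA and below TER119-SIINFEKL. Xcl1 (60.4, 79.2 and 91.8 RPKM against 362, 173 and 268 RPKM, -1.75 ± 0.33) and Ccl4 (8.67, 14.5 and 16.1 RPKM against 49.6, 44.4 and 49.9 RPKM, -1.92 ± 0.38) were the chemokines that differed. Tnfrsf9, Tnfsf14 and Nr4a3 gave -1.39 ± 0.27, -1.45 ± 0.18 and -1.11 ± 0.19. Srm, which makes spermidine, differed by -1.14 ± 0.19, Hk2 by -1.22 ± 0.25 and Polr1b by -0.87 ± 0.13. Of 65 ribosome biogenesis genes 5 were lower and none higher (median -0.46). Higher in ERY1-OVA were Il6ra (0.67 ± 0.12), S1pr1 (0.60 ± 0.11) and Il6st (0.49 ± 0.10), with Il6ra at 16.03, 14.8 and 14.04 RPKM against 8.73, 9.23 and 10.3 RPKM. Folr4 and Ikzf2 gave -0.55 ± 0.25 (adjusted p = 0.45) and 0.15 ± 0.28 (adjusted p = 0.95). Without 1 library the calls numbered 0 to 42, with none left without ERY1-OVA 2, TER119-SIINFEKL 2 or TER119-SIINFEKL 3. Without the SIINFEKL group 163 were called, and the peptide and the whole protein differ between these groups along with the carrier, so the 2 cannot be told apart.

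**Figure D4:**
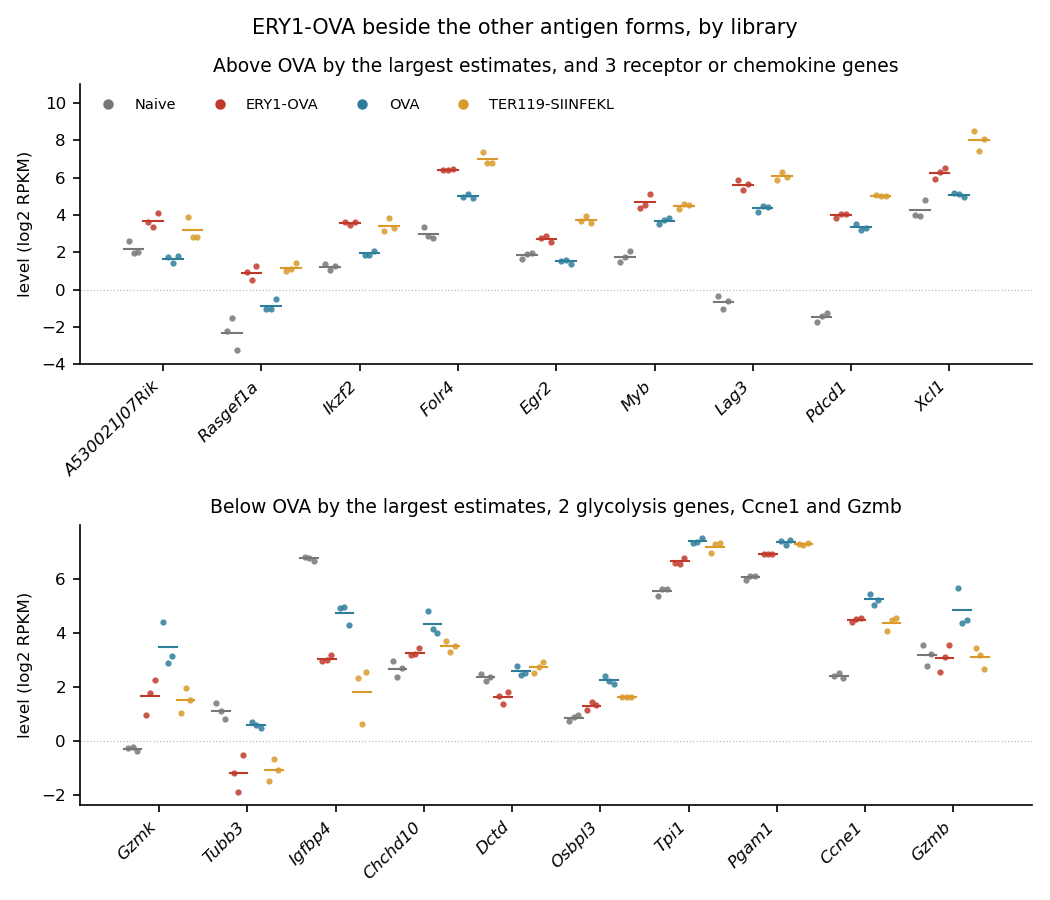
Level (log2 RPKM, vertical axes) in each library of Naive, ERY1-OVA, OVA and TER119-SIINFEKL for genes (horizontal axes) with higher (top) or lower (bottom) estimates in ERY1-OVA than in OVA; dots are libraries and short lines group means. Egr2 shows the order OVA, Naive, ERY1-OVA and TER119-SIINFEKL, while Gzmb and Gzmk are highest in OVA.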

How the data were processed

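RNA of sorted cells from 14 libraries in 5 groups had been made into poly(A) stranded libraries, per the labels' protocols. The deposited values are log2 RPKM; the submitters' processing notes list the builds mm10 and GRCm38 and the tools edgeR, bcl2fastq 2.17.1.14 and STAR 2.4.2, while the counter, the annotation, the gene lengths and the prior count added by the authors are not given in the sources used here. Depth is therefore unknown. The base of the logarithm was checked: RPKM times gene length summed to 1764368 to 2042896 per library with base 2 and to 22638320 to 37606456 with base e, and 4.3% of values were negative. The planned test allowed for linear values too, but the values were used as deposited.

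Genes with a mean of at least 1 RPKM over all 14 libraries were kept (9793, with 313 removed). All 14 libraries entered 1 limma 3.58.1 fit (R 4.3.3) with a variance trend (degrees of freedom: 9 residual, 4.63 prior), two-sided, with Benjamini-Hochberg adjustment over all genes and a threshold of 0.05. On simulated data for ERY1-OVA against Naive over 9793 genes, 67, 67 and 66 genes were changed by 0.5, 1 and 2 on the log2 scale. The fit recovered 43.3%, 85.1% and 98.5% of them, and called 8 unchanged genes. The simulated spread left out the SIINFEKL group, and far fewer genes were changed than were called in the data. These figures therefore do not give the recovery of the fit to the data. Named genes were, among those called without overlap, the 12 largest rises and 12 largest falls at 4 RPKM or more in the higher group, 4 per list by adjusted p, the 6 largest differences each way from OVA, and, whether called or not, a set of immune genes. Some genes that this rule takes are not reported here, and other genes were named after their values were seen. The members and all 35 lists were chosen with earlier results of these data known. Gene positions came from GENCODE M21 (10039 identifiers matched), promoters from RefSeq (GRCm38.p6, 7850 genes matched). Figures were drawn with matplotlib 3.10.9, and tables made with numpy 2.4.6 and pandas 2.3.3 in Python 3.11.15.

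Alternatives were quantile and median-of-ratios scaling, pseudocounts of 1 and 0.1, no filter and a filter at 3 RPKM, no trend, a robust fit, array weights, a replicate block, the compared groups alone, SIINFEKL left out, a 2-fold requirement, a length and GC correction (9716 genes, splines with 4 degrees of freedom), and leaving out each library. Havcr2 and Prdm1 were not among the genes tested.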

Additional observations from a re-analysis of the deposited data

How the results depend on the processing

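Of 179 named genes 167 were called against Naive, and these kept their direction under every alternative run. Of the 167, 99 lost the call when a change of more than 2-fold was the hypothesis (331 genes in all, 300 higher and 31 lower), and 14 lost it under some other alternative. Without 1 library the genes called numbered 3013 to 3674, with 1645 to 1961 higher and 1368 to 1713 lower; the other alternatives gave 3463 to 5103.

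The direct tests against OVA and TER119-SIINFEKL moved far more, and the cause was not tested. Against OVA, quantile normalization left 27 lower and no variance trend 34 lower, and the 2 groups alone gave 61 higher. Array weights, whose estimation stopped before it converged, gave 2468 (1134 higher, 1334 lower), the fit without SIINFEKL 359 (140 and 219), the length and GC correction 237 (114 and 123), and the 2-fold requirement 0. Without 1 library 0 to 15 were called, 0 to 10 higher and 0 to 5 lower. Against TER119-SIINFEKL, no trend gave 29 (2 and 27), array weights 2477 (1073 and 1404), the 2 groups alone 1 higher, the fit without SIINFEKL 163 (26 and 137), the length and GC correction 94 (15 and 79) and the 2-fold requirement 0. Without 1 library these numbered 0 to 42, 0 to 6 higher and 0 to 36 lower.

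The labels do not tie replicate numbers to a shared animal or day. Deviations of same-numbered ERY1-OVA and Naive libraries correlated at -0.25 to 0.33, and those of different numbers at -0.45 to 0.40. With 3 libraries per group these correlations cannot decide whether the numbers pair the libraries. With the replicate number as a block 3911 genes were called against Naive (2047 higher, 1864 lower), 69 against OVA (31 and 38) and 32 against TER119-SIINFEKL (27 lower). No counts were used here, so the precision that depth gives each level is unknown.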

Other observations

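The genes of the circadian clock, the transcriptional loop that gives cells a daily rhythm, numbered 16, of which 9 fell and none rose, with a median of -0.89; over all genes tested 19.0% fell. Nr1d1, the repressor REV-ERBα, stood at 2.02, 3.34 and 3.75 RPKM in Naive and 0.448, 0.642 and 0.543 RPKM in ERY1-OVA. The groups did not overlap (-2.45 ± 0.38, limma adjusted p = 2.3e-04; -1.36 with 1 RPKM added). Its paralogue Nr1d2 went from 8.18, 7.13 and 10.4 RPKM to 1.75, 2.83 and 2.93 RPKM (-1.80 ± 0.31). Rora, an activator at the sites the REV-ERB proteins repress, fell by 1.52 on the log2 scale (-0.87 with 1 RPKM added). The core activators Clock (-0.91 ± 0.22) and Arntl (-0.50 ± 0.12) and the repressors Cry1 (-0.97 ± 0.14) and Cry2 (-0.90 ± 0.23) fell as well. Dbp, an output gene of the loop, went from 9.27, 11.4 and 12.9 RPKM to 5.72, 6.06 and 6.19 RPKM (-0.89 ± 0.19). Per1 and Per2, the remaining repressors, were not called and their values overlapped (-0.12 ± 0.34 and -0.31 ± 0.28). Whichever of the 6 libraries was left out, 9 genes of the clock list fell. The labels give no hour for the spleens, and a part of it in these values was not tested.

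Among 60 interferon-stimulated genes, which type I and type II interferons induce against viruses, 17 fell and 5 rose (median -0.27). Gbp2, a GTPase that attacks the membranes around pathogens, went from 70.3, 83.5 and 71.6 RPKM to 39.2, 42.0 and 38.0 RPKM (-0.91 ± 0.17). Irgm2, of a related family, fell by 1.10 ± 0.25, and Rnf213, a large ubiquitin ligase, fell as well (-0.75 ± 0.13; -0.50 when corrected for length and GC content). Isg15, a ubiquitin-like protein of the response, gave -0.20 ± 0.43 (adjusted p = 0.73). The falls numbered 9 without Naive 2, and the rises 1 without Naive 1 and 3 without Naive 3 or ERY1-OVA 3. Under the correction for length and GC content 26 fell and 2 rose, and with the 2 groups fitted alone 26 fell. Of the 25 MHC class I and peptide loading genes tested, 5 fell (20.0%) and 2 rose (8.0%), with a median of -0.24. The share of falls was near the 19.0% of all genes tested. Psmb9, a subunit of the immunoproteasome, rose by 0.71 ± 0.14. H2-K1, the class I chain that presents SIINFEKL, was 2076, 2108 and 2238 RPKM in Naive and 1447, 1344 and 1433 RPKM in ERY1-OVA (-0.60 ± 0.19), a fall lost with quantile normalization (-0.40) and without Naive 3 or ERY1-OVA 2. The falls in this list numbered 3 without ERY1-OVA 2 or Naive 3, and came to 10 under quantile normalization and 11 both under the correction for length and GC content and with the 2 groups fitted alone.

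The solute carriers, the largest list, numbered 142, of which 33 fell (23.2%) and 12 rose (8.45%), with a median of -0.13. Over all genes tested 19.0% fell and 20.9% rose. Slc43a3, a carrier of purine bases, went from 0.555, 0.508 and 0.637 RPKM to 11.2, 8.70 and 11.2 RPKM (4.19 ± 0.34; 2.85 with 1 RPKM added), and the nucleoside carrier Slc29a1 rose by 0.97 ± 0.18. Slc25a5, which exchanges ADP and ATP across the mitochondrial membrane, rose from 399, 328 and 371 RPKM to 604, 788 and 719.9 RPKM (0.94 ± 0.16). Slc3a2, the heavy chain of CD98 amino acid carriers, fell by 0.74 ± 0.13, and its partner Slc7a5 gave -0.32 ± 0.20 (adjusted p = 0.22). The glucose carrier Slc2a1 gave -0.17 ± 0.13 (adjusted p = 0.30). Among 37 transfer RNA synthetases, 10 rose and 1 fell (median 0.17), with 5 to 6 rises without ERY1-OVA 3 or Naive 1 or 3. The fall was in the mitochondrial enzyme Ears2 (-1.18 ± 0.23), without overlap, and 2 fell under the correction for length and GC content. Of the 71 chaperones and heat shock proteins tested, 8 rose (11.3%) and 11 fell (15.5%), both below the shares of all genes (median 0.02). Dnajb2, a co-chaperone of HSP70, fell by 1.85 ± 0.26. The rises numbered 3 without ERY1-OVA 2 or Naive 3, and the falls 7 without ERY1-OVA 2 or 3 and 6 without Naive 2. With quantile normalization 18 fell, and under the correction for length and GC content 17 fell and 4 rose. None of the 8 Gimap GTPases, which keep lymphocytes alive, was called by limma (median -0.08), but 4 fell with quantile normalization, 3 fell under the correction for length and GC content and 1 fell without ERY1-OVA 1, while 1 rose with the replicate block, with the 2 groups fitted alone and without ERY1-OVA 3 or Naive 1.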
